A study of Mus musculus with 16 samples.

Results

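Col27a1, the gene of the alpha 1 chain of type XXVII collagen, was followed in the livers and kidneys of 8 aged mice. It is 1 row of the 32989 genes in the deposited tables of each organ. The gene was chosen by its liver FPKM, which were lower in the ADV-conditioned than in the LD-conditioned mice, so the liver difference of Col27a1 is described here and not tested. The kidney values, the 10 other fibrillar collagens and the genes around the locus were not used in that choice and were tested. All mice were male C57BL/6J mice of 97 weeks that had been kept for 85 weeks in their lighting condition. The LD condition was a fixed light-dark cycle with lights on from 8:00 to 20:00, and in the ADV condition the cycle was moved forward by 8 h every 4 days (chronic jet lag). The liver and the kidney of 4 LD mice, named L63, L65, L86 and L104, and of 4 ADV mice, named A75, A91, A94 and A115, were collected between 13 and 16 h after the last light-on, and each gave 1 poly(A)-selected library, 16 in all. The study asked what chronic circadian misalignment does to aging mice, and compared the transcriptomes of both organs between the conditions.

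Fibrillar collagens are the rod-shaped proteins that give connective tissue its tensile strength. Their chains carry a long run of short repeats that begin with glycine, wind around each other into a triple helix in the endoplasmic reticulum, are trimmed at both ends outside the cell and are then crosslinked into fibrils. Types I, III and V are made by fibroblasts and by activated stellate cells and build up in liver fibrosis, types II and XI belong to cartilage, and types XXIV and XXVII are later additions to the family with a shorter helix. Type XXVII collagen is best known from growth plate cartilage, and loss of the human gene causes a skeletal disorder, Steel syndrome.

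The tables placed Col27a1 (uc008tfs.2) on the plus strand at chr4:63215413-63334991 of GRCm38/mm10, a span of 119.579 kb, and gave its exons a length of 7574 bases. In GENCODE M21, which uses the same assembly, the protein-coding transcript Col27a1-201 has 61 exons, and the other 6 transcripts are annotated as retained introns, targets of nonsense-mediated decay or a processed transcript. The values count exons of the whole gene and do not separate these forms. Intron 10 holds the microRNA gene Mir455, on the same strand. The mature microRNAs, from RefSeq (GRCm38.p6), are shown because they share the primary transcript of Col27a1, with the seed, bases 2 to 8, in capitals.
mmu-miR-455-5p, chr4:63256867-63256888: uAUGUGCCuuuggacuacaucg
mmu-miR-455-3p, chr4:63256904-63256924: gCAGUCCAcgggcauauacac
The seeds of the 5p and 3p arms differ. The row of the Mir455 precursor was listed at 0 in all 16 libraries. Poly(A)-selected libraries do not measure mature microRNAs, so nothing is known here of their level.

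The 250 bases before the start annotated by RefSeq, which lies 1 base upstream of the start in the tables, are given by RefSeq (GRCm38.p6, chr4:63215162-63215411, plus strand) and are shown because the row's RNA is read from there, with the match to a searched motif in capitals.
Col27a1 upstream: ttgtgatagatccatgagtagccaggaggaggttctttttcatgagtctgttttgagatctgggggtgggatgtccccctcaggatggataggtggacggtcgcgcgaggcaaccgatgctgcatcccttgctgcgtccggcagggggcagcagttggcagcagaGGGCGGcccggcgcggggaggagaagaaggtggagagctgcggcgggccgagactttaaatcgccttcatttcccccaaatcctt
The capitals mark a GC box, GGGCGG, whose first base lies 85 bases before the RefSeq start, and 32.7% of the 32851 promoters in the table held such a match on either strand. The window held no E-box CACGTG (6.02% of promoters), no D-box TTATGNAA (3.07%) and no AGGTCA element of the ROR and REV-ERB receptors (14.0%), which are the elements read by the core clock. The motifs TATAAA (12.4% of promoters) and ACAATG (10.7%) were not found either. The window was 59.6% G and C, against a median of 52.4% over all promoters, and held 15 CG pairs against a median of 6. These are matches of letters within 1 short window.

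The liver libraries held between 22700000 and 26300000 fragments and the kidney libraries between 17100000 and 19700000, rounded to 3 digits. Hepatocyte markers summed to at least 56873 FPKM in each liver and at most 274 FPKM in each kidney, while tubule and podocyte markers summed to at most 2.94 FPKM in each liver and at least 1428 FPKM in each kidney, as the organ labels say. FPKM are fragments per kilobase of exon and relative to the fragments of the library. Libraries of 2 mice stood apart. In A94, the 10 lymphocyte markers summed to 66.9 FPKM in the liver, against 2.07 to 4.45 FPKM in the other livers, and to 69.0 FPKM in the kidney, against 3.03 to 8.18 FPKM in the other kidneys. Markers of Kupffer cells and macrophages summed to 322 FPKM in that kidney and to 46.2 to 154 FPKM in the others. In the kidney of A115, mitochondrial genes took 33.8% of the fragments on genes, against 9.43% to 13.1% in the other ADV kidneys and 15.7% to 18% in the LD kidneys, and genes rich in G and C were low. Genes whose transcripts were over 55% G and C had a median log2 deviation of −1.93 from the other kidneys, and genes under 45% one of 0.42. The difference between these medians was −2.35 in A115, between −0.40 and 0.84 in the other kidneys and between −0.18 and 0.18 in the livers. The main results of the kidney are therefore given with and without A115. The libraries were sequenced by a pair of providers on different instruments, the sources used here do not say which library came from which, and a sequencing batch cannot be told apart from the conditions.

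In the livers, Col27a1 was lower in the ADV condition, at 0.335 of the mean LD level. Among the LD livers Col27a1 was at 8.14 FPKM in L63, 9.85 in L65, 7.84 in L86 and 10.1 in L104. The ADV values were 2.74 FPKM for A94, 2.86 for A75, 3.02 for A91 and 3.41 for A115. The groups did not overlap, and the highest ADV liver lay well below the lowest LD liver. These values rest on 1509.5 to 1880 fragments in each LD library and 471.5 to 599.5 in each ADV library, where a pair of reads counts as 1 fragment. The spread between mice, a coefficient of variation of 13% in LD and 9.77% in ADV (n = 4 each), exceeded the counting error of 2.31% to 2.57% and 4.08% to 4.61%. The mean levels were 8.99 ± 1.17 and 3.01 ± 0.294 FPKM (SD, n = 4 mice each), 2.99 times as high in LD. On the log2(FPKM + 0.1) scale, which is used for all differences here, ADV minus LD was −1.54 (standard error 0.13). Every ADV liver lay below every LD liver in 1.89% of the 12835 genes tested, which are those above a minimum level of 0.5 FPM (FPKM without the division by length), a share given as background to the choice of the gene. Of these genes, 9 had a lower log2 difference than Col27a1, and in 1 of the 9, Ttll8 (−1.64), the groups did not overlap. Leaving out each mouse in turn gave differences between −1.61 and −1.48. In bulk tissue, fewer cells that make Col27a1 and less of its RNA per cell cannot be told apart.

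**Figure D1:**
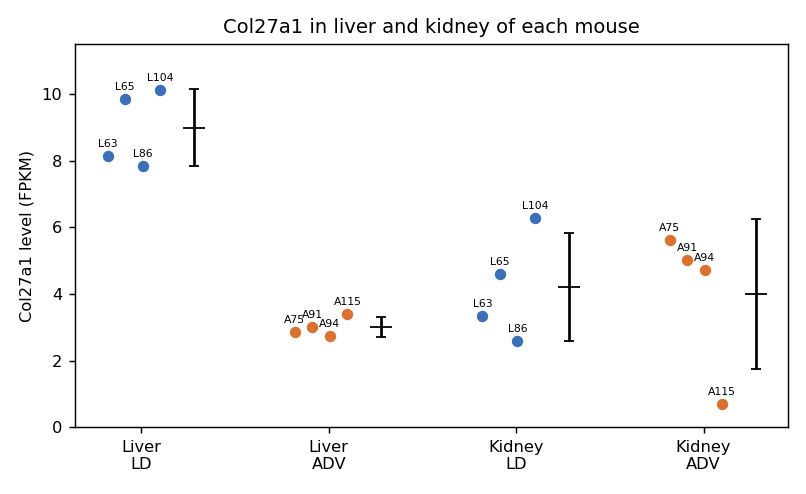
Level of Col27a1 in FPKM (vertical axis, linear, from 0) in each library of the 4 groups, with the mouse named at each point and the mean ± SD beside each group (n = 4). The LD livers lie between 7.84 and 10.1 FPKM and the ADV livers between 2.74 and 3.41, while the kidney groups overlap and the kidney of A115 lies at 0.690.

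Among these livers, the summed markers of stellate cells and fibroblasts, like Col27a1, did not overlap between the conditions. Dbp, an output gene of the clock with a steep daily rhythm, ranged from 8.25 to 28.6 FPKM among the LD livers and from 1.33 to 37.8 among the ADV livers, 3.46-fold and 28.5-fold. Col27a1 ranged 1.29-fold and 1.25-fold in the same livers. Of the 10 core clock genes above the minimum, 7 ranged more widely than Col27a1 among the LD livers and all 10 did so among the ADV livers, while Per3, Cry2 and Nr1d2 ranged 1.13-fold, 1.15-fold and 1.16-fold among the LD livers. Arntl, the activator of the clock that peaks opposite to Dbp, was at 5.91 and 6.72 FPKM in A75 and A115 and at 1.06 and 0.723 in A91 and A94, and Col27a1 was at or below 3.41 FPKM in all 4. Of the 11 core clock genes listed, 10 passed the minimum in the liver, 0 had an adjusted p under 0.05 by limma and their median log2 difference was −0.42, or −0.19 without A115, against 0.096 over all genes tested. Per2 had the smallest p of the list (−0.56, adjusted p = 0.362 by limma), and its groups overlapped. Cry2, a repressor of the clock, was the 1 of the 10 with every ADV liver below every LD liver, against 1.89% of all genes (−0.37, adjusted p = 0.385 by limma). The 14 markers of stellate cells and fibroblasts summed to 191 to 204 FPKM in LD livers and to 238 to 384 FPKM in ADV livers, and 0 of them passed the threshold. Their median log2 difference was 0.54, and 7 of the 14 had an unadjusted p under 0.05, against 11.8% of all genes. In 4 of the 14, Dcn, Pdgfra, Rgs5 and Ngfr, every ADV liver lay above every LD liver, against 6.94% of all genes. Decorin (Dcn), a proteoglycan that binds collagen fibrils, made up most of the sum, with 103.6 to 119 FPKM in LD and 147 to 212 FPKM in ADV (log2 difference 0.65, adjusted p = 0.234 by limma). The 9 markers of Kupffer cells and macrophages summed to 143 to 226 FPKM in LD and to 211 to 273 FPKM in the ADV livers other than A94, with overlap, and to 604 FPKM in A94. All 9 had a log2 difference above 0, with a median of 0.78, or 0.42 without A94. Of the 9, 0 were past the threshold and 5 had an unadjusted p under 0.05, against 11.8% of all genes. In 4 of the 9, Clec4f, Vsig4, Adgre1 and Csf1r, every ADV liver lay above every LD liver, against 6.94% of all genes. The 7 cholangiocyte markers summed to 19.1 to 27 FPKM in LD, to 26.5 to 53.8 FPKM in the ADV livers other than A94 and to 246 FPKM in A94, and the 4 that passed the minimum had a median log2 difference of 1.13, or 0.93 without A94, with 0 past the threshold. Spp1, which other cells also make, was 242 FPKM of the sum in A94. Krt19, a keratin of bile ducts, was at 0.815 FPKM in A94, 0.786 in A91, 6.31 in A115 and 14.2 in A75, and at 0.638 to 1.29 FPKM in LD. The 10 hepatocyte markers summed to between 56873 and 69538 FPKM in LD and between 57426 and 68210 in ADV, with a median log2 difference of −0.07. Alb, which encodes albumin, made up most of each sum. Of the 10, 1 had an unadjusted p under 0.05, against 11.8% of all genes, namely Hnf4a, with overlap (−0.42, adjusted p = 0.378 by limma). The part of cell composition and clock phase in the level of Col27a1 was not tested.

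Col27a1 has a long transcript rich in G and C, 59.4% by its GENCODE sequence, which places it above 94.1% of the liver genes tested. By exon length it was above 95.1% of them. The 1631 liver genes within 2.5 percentage points of this composition had a median log2 difference of 0.062, and the 156 of them with exons over 5 kb had 0.073. The lowest decile of the differences of these 156 genes ended at −0.25. These windows were chosen after the values had been seen.

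In the kidneys, Col27a1 did not pass the test between the conditions. The LD kidneys had 3.34 FPKM in L63, 4.61 in L65, 2.59 in L86 and 6.28 in L104. The ADV kidneys had 0.690 FPKM in A115, 4.72 in A94, 5.01 in A91 and 5.61 in A75. A75, A91 and A94 lay within the range of the LD kidneys, and A115 lay below all others, on 100 fragments. The means were 4.21 ± 1.62 FPKM in LD and 4.01 ± 2.24 in ADV (SD, n = 4 mice each), a log2 difference of −0.33 (standard error 0.65, adjusted p = 1.0 by limma, two-sided exact permutation test p = 0.83). Over the 14452 kidney genes tested, 0% had an adjusted p under 0.05 and 3.10% had an unadjusted p under 0.05. Without A115, the difference changed sign to 0.35 (standard error 0.27, adjusted p = 0.373 by limma), with 5.11 ± 0.457 FPKM (SD, n = 3) in ADV, and 18.8% of 14475 genes had an adjusted p under 0.05. Without A94, the difference was −0.52 (standard error 0.72).

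The low kidney value of A115 was found in a library whose composition was shifted, and the cause of the low value was not tested. Col27a1 lay 2.61 below the median of the other kidneys on the log2 scale. For the 1886 kidney genes within 2.5 percentage points of its G and C content the median was −2.11, for the 183 of them with exons over 5 kb it was −1.76, and for all genes it was −0.52. Of those 183 genes, 20 others lay at least as far below as Col27a1. Tubule and podocyte markers summed to 1428 FPKM in A115 and to between 2947 and 4491 in the other kidneys. In the liver of the same mouse Col27a1 was 3.41 FPKM, the highest of the ADV livers.

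The order of the 4 group means, from high to low, was the LD liver, the LD kidney, the ADV kidney and the ADV liver. Without A115 the ADV kidneys, at 5.11 FPKM, came before the LD kidneys. The LD livers lay above every kidney, the LD and ADV kidneys overlapped, and the ADV livers lay within the range of the kidneys. The organs come from separate tables without a common scaling, so levels are set side by side across organs without a test. In each of the 4 LD mice the liver exceeded the kidney, by 2.44 times in L63, 2.14 in L65, 3.03 in L86 and 1.61 in L104. In the ADV mice the liver was at 0.509 of the kidney level in A75, 0.580 in A94 and 0.604 in A91, whereas A115 had 4.95 times the kidney level. Among the LD mice the order was the same in both organs, with L86 lowest, then L63, L65 and L104, and among the ADV mice it was not.

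Of the 11 fibrillar collagens, Col27a1 had the highest level in each LD liver, and the ADV livers differed from each other mainly in the types I, III and V. Col27a1 made up between 52.5% and 60.7% of the summed FPKM of the 11 genes in the LD livers. In the ADV livers it made up 2.45% in A94, 16.1% in A115, 17.4% in A75 and 30.3% in A91, and only in A91 was it still the highest of the 11. The share combines the lower numerator with a sum that ran from 14.2 to 17.7 FPKM in LD and from 9.98 to 112 in ADV. In the kidneys the share ran from 7.42% to 30.1% in LD and from 0.996% to 20.7% in ADV.

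In the liver, 0 of the 10 other fibrillar collagens had an adjusted p under 0.05 by limma, against 0.00779% of all genes tested, a set that includes Col27a1. Of the 10, 6 passed the minimum. All 6 had a log2 difference above 0, and 4 of them had an unadjusted p under 0.05, as 11.8% of all genes did. Col1a1, which encodes the main chain of type I collagen, was at 0.323, 0.255, 0.226 and 0.309 FPKM in the LD livers L63, L65, L86 and L104. It was at 0.335 FPKM in A91, 0.705 in A75, 2.07 in A115 and 11.4 in A94. Each ADV liver lay above each LD liver, as in 6.94% of all genes tested, but A91 did so by a narrow margin and A94 stood far above the rest. Its log2 difference was 2.19 (standard error 0.84, adjusted p = 0.385 by limma), and 1.28 without A94.

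Col3a1, which forms type III fibrils alongside type I, lay between 2.23 and 2.45 FPKM in the LD livers. It was at 2.24 FPKM in A91, 6.48 in A75, 6.85 in A115 and 67.0 in A94, so that A91 fell among the LD livers. The log2 differences were 1.91 for Col3a1 (adjusted p = 0.414), 1.78 for Col1a2, the partner chain of Col1a1 (adjusted p = 0.400), and 1.46 for Col5a2 (adjusted p = 0.401, all by limma). Without A94 they were 0.95, 0.93 and 0.85. The study reported Col1a1, Col1a2 and Col3a1 as upregulated in these same livers, so their direction is not independent evidence. It also reported Acta2 and Lum, and marked significance by DESeq2 at an FDR under 0.05, another test than the limma fit used here. In that fit Acta2 and Lum, which are on the stellate cell list, had 2.19 and 1.24 (adjusted p = 0.310 and 0.362 by limma), and 2.02 and 0.80 without A94. Col5a1 and Col5a3, chains of type V collagen, had log2 differences of 0.77 and 0.099, and Col5a3 lay between 1.28 and 3.49 FPKM over all livers. Col5a1 had 0.27 without A94. The difference of Col5a3 was −0.093 without A115. Col27a1 was thus at its lowest, 2.74 FPKM, in the liver where Col1a1, Col1a2, Col3a1, Col5a1 and Col5a2 were highest. The liver of A115 came next in each of these collagens, and there Col27a1 was the highest of the ADV livers, at 3.41 FPKM.

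The cartilage collagens were near 0. Col2a1, the main collagen of cartilage, was listed at 0 in all 8 livers and at most at 0.020 FPKM in a kidney. Col11a1 reached 0.0053 FPKM in the livers and 0.086 in the kidneys, Col11a2 reached 0.113 and 0.107, and Col24a1, the family member most like Col27a1, reached 0.096 and 0.206.

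**Figure D2:**
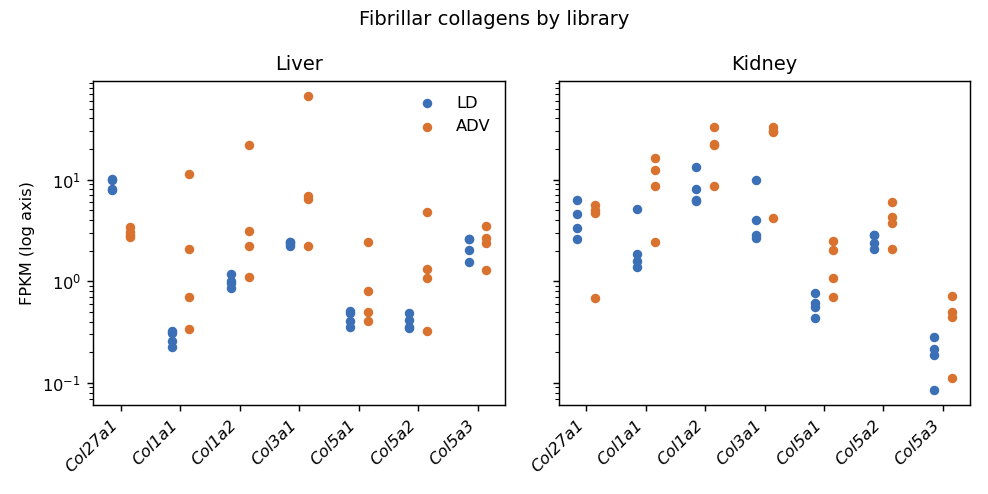
Level of Col27a1 and the 6 other fibrillar collagens that passed the minimum in the liver, in FPKM on a log axis, with 1 point per library, LD in blue and ADV in orange (n = 4 each). In the liver panel the ADV points of Col27a1 lie below the LD points, while Col1a1, Col1a2, Col3a1 and Col5a2 spread upwards to the values of A94 (11.4 FPKM for Col1a1 and 67.0 for Col3a1).

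In the kidney, 0 of the 10 had an adjusted p under 0.05, and 7 of the 10 passed the minimum, all with a log2 difference above 0. Of the 7, Col1a1 (1.88), Col1a2 (1.26), Col3a1 (2.14) and Col5a1 (1.15) had an unadjusted p under 0.05, against 3.10% of all kidney genes. Leaving out A115 gave 1.86 for Col1a1 and 1.20 for Col1a2. Col3a1 was at 30.3, 29.1 and 33.3 FPKM in A75, A94 and A115 and at 4.19 in A91, against 2.67 to 9.92 in the LD kidneys (log2 difference 2.14, standard error 0.72, adjusted p = 1.0 by limma). When 1 mouse was left out, its difference ranged from 1.87, without A115, to 2.85. In A115 Col3a1 was thus the highest of the 8 kidneys where Col27a1 was the lowest. Without A115, 2 of the 7 tested rose with an adjusted p under 0.05 by limma, against 16.1% of all genes. They were Col5a1 (1.45, adjusted p = 0.0191) and Col5a3 (1.18, adjusted p = 0.033). Scaling the same 7 kidneys by the median ratio gave 1.27 and 1.03 (adjusted p = 0.0259 and 0.0495), and 0.16 for Col27a1 (adjusted p = 0.716). The ADV kidneys other than A115 had higher medians in genes rich in G and C, with differences of 0.49 to 0.84 between the composition classes against −0.40 to −0.04 in the LD kidneys, and lower mitochondrial shares, and the part of either in the calls was not tested.

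Collagen chains need a set of enzymes and chaperones before they can be secreted and crosslinked. Of 29 such genes found, 25 passed the minimum in the liver, 0 were past the threshold and 19 had a difference above 0. Their median log2 difference was 0.43, against 0.096 over all genes. Without A94 it was 0.10, against 0.025 over all genes. Loxl4, a lysyl oxidase that crosslinks collagen, was at 0.170 to 0.263 FPKM in the LD livers and at 0.287 to 0.604 in the ADV livers (log2 difference 0.74, adjusted p = 0.357 by limma). The groups did not overlap in Loxl4, as in 6.94% of all genes in that direction, nor in Mia3, which loads bulky collagens into transport carriers at the endoplasmic reticulum and in which every ADV liver lay below every LD liver, as in 1.89% of all genes. The levels of Mia3 were 25.6 to 36.1 FPKM in LD and 22.3 to 24.7 in ADV (log2 difference −0.30, adjusted p = 0.382 by limma). P3h2, a prolyl 3-hydroxylase, had 0.69 (adjusted p = 0.385) and Lox, the founding lysyl oxidase, 1.41 (adjusted p = 0.424), which was 0.72 without A94. In the kidney, 27 passed the minimum, 0 were past the threshold and the median was 0.11, against −0.024 over all genes. The median was 0.50 without A115, against 0.20 over all genes. Without A115, 4 of the 27 rose, in a fit in which 16.1% of all genes did so, namely Plod1, P3h3 and Fkbp10, which modify or chaperone the chains, and Pcolce, which speeds their trimming (log2 differences 0.63, 0.62, 1.15 and 1.26). When the same kidneys were scaled by the median ratio, only Fkbp10 and Pcolce of these stayed called (0.96 and 1.07). Plod2 and Mia3 of the list were then called lower.

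Of 11 collagen receptors found, 8 passed the minimum in the liver and 0 were past the threshold, with a median of 0.55, or 0.31 without A94. Itga1, the alpha 1 integrin chain that binds collagen, was at 2.91 to 3.49 FPKM in the LD livers and at 3.95 to 5.49 in the ADV livers, without overlap (log2 difference 0.48, adjusted p = 0.306 by limma). Lair1, an inhibitory collagen receptor of immune cells, had 0.97 (adjusted p = 0.412) and likewise no overlap, and 0.50 without A94. These were 2 of the 8 tested, against 6.94% of all genes. In the kidney the median of the 10 receptors that passed was 0.34, or 0.40 without A115, and 0 were past the threshold with A115 included. Without A115, Ddr1, a receptor tyrosine kinase for collagen, and Mrc2, which takes up collagen fragments, rose (0.77 and 1.32), 2 of the 10 tested against 16.1% of all genes.

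Genes of chondrocytes, the cells in which Col27a1 is best known, were measured in both organs, where the 13 found summed to 5.43 to 8.43 FPKM in the livers and 5.31 to 7.96 FPKM in the kidneys. Of these, 4 passed the minimum in the liver and 0 were past the threshold, with a median of −0.05, or −0.19 without A94. Sox9, the master regulator of chondrocytes, which binds the Col27a1 gene there, was at 0.607 to 1.04 FPKM in the LD livers and at 0.386 to 1.27 in the ADV livers (log2 difference −0.013, adjusted p = 0.988 by limma). Sox5 and Sox6, its partners, had 0.38 (adjusted p = 0.481) and −0.086 (adjusted p = 0.822). Cnmd, an inhibitor of vessel growth in cartilage, had the smallest p of the list, at 1.62 FPKM in A115, 1.68 in A75, 1.91 in A94 and 4.04 in A91 against 2.72 to 4.60 in the LD livers, so that the groups overlapped in A91 (−0.67, adjusted p = 0.419). In the kidney 5 passed, 0 were past the threshold and the median was 0.21, or 0.048 without A115. Acan, which encodes the large proteoglycan of cartilage, was at most 0.012 FPKM in any library, and Comp, a pentameric protein of the cartilage matrix, reached 1.48 FPKM in the kidney of A94, against 0.069 to 0.499 FPKM in the other kidneys.

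The neighbours of Col27a1 on chromosome 4 did not share its liver pattern. The tables list 18 other genes within 300 kb of it, of which 8 passed the minimum in the liver and 7 in the kidney. In the liver 0 of the 8 were past the threshold, and each of the 8 had a log2 difference above 0, although that of Akna was −0.037 without A94 and that of Whrn −0.041 without A115. The nearest expressed genes on the far side are the 3 orosomucoid genes Orm1, Orm3 and Orm2, which encode plasma proteins of the acute phase response and start 129, 141 and 147 kb after the start of Col27a1. Orm3 was at 5.57 FPKM in L63, 6.85 in L65, 14.0 in L86 and 9.10 in L104. It was at 14.2 FPKM in A91, 17.5 in A115, 23.7 in A75 and 32.8 in A94, so that the groups did not overlap, although L86 and A91 nearly met. Its log2 difference was 1.32 (standard error 0.32, adjusted p = 0.296 by limma). Orm1 and Orm2 had 0.81 (adjusted p = 0.362) and 2.52 (adjusted p = 0.357), and Orm2 reached 714 FPKM in A94 and between 14.9 and 64.1 in the LD livers. Without A94 the differences of Orm1, Orm3 and Orm2 were 0.63, 1.10 and 1.79. The Orm genes are close copies of each other and reads could be split between them, so their single values are uncertain.

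On the near side, Ambp, which encodes the precursor of alpha-1-microglobulin and bikunin, was among the most abundant RNAs of the liver, between 1312 and 1925 FPKM, with a log2 difference of 0.16 (adjusted p = 0.665 by limma). Kif12, a kinesin gene upstream of Col27a1, was at most 0.410 FPKM in a liver and at 15.3 to 24.7 FPKM in the LD kidneys. Akna, which lymphocytes express, stood at 2.97 FPKM in the liver of A94 and at 0.355 to 0.559 in the other livers. Whrn, Atp6v1g1 and Tmem268 had 0.11, 0.32 and 0.63 in the liver, and Tmem268 had 0.32 without A94. An antisense row, AK031219 (chr4:63326908-63365723), shares 8084 bases with the end of the Col27a1 span and was between 0.018 and 0.779 FPKM in the livers and listed at 0 in the kidneys. The libraries were stranded, but whether the counting used the strand is not given in the sources used here, so reads of AK031219 and of Col27a1 in the shared stretch may not be separated.

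In the kidney 0 of the 7 neighbours tested were past the threshold. In A115, Kif12 was at 2.45 FPKM against 31.6 to 44.3 in the other ADV kidneys, Whrn at 0.551 against 4.94 to 5.44 and Atp6v1g1 at 35.3 against 126 to 154. Without A115 these 3 of the 7 rose, as 16.1% of all genes did, by 0.90, 0.55 and 0.43 on the log2 scale (adjusted p = 0.0156, 0.0306 and 0.0205 by limma), and Kif12 alone stayed under 0.05 when the 7 kidneys were scaled by the median ratio (0.71, adjusted p = 0.0334).

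**Figure D3:**
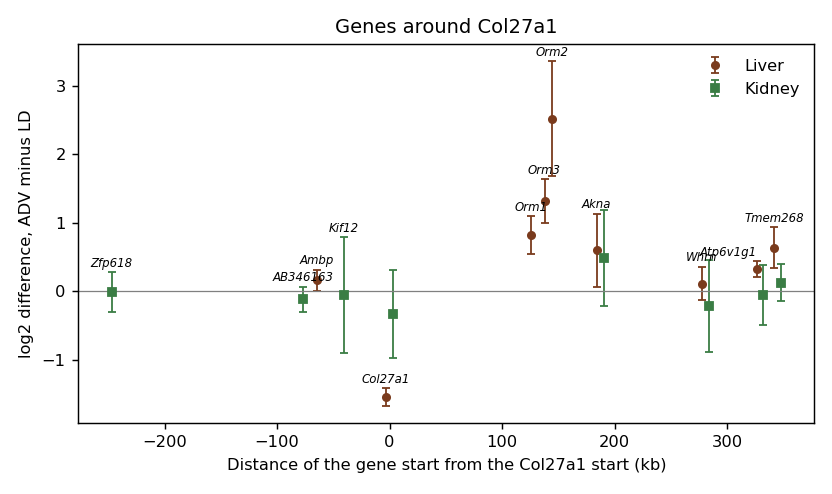
Log2 difference between ADV and LD (vertical axis, with its standard error as bar, 4 mice per group) of Col27a1 and of the genes around it that passed the minimum, against the distance of each start from that of Col27a1 in kb, for liver (circles) and kidney (squares), shifted slightly sideways where they would cover each other. In the liver Col27a1 lies at −1.54 and its 8 neighbours above 0, up to 2.52 for Orm2.

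The genes nearest to Col27a1 in pattern were sought among the 12319 genes that passed the minimum in both organs. Nearness was the root mean square difference of the log2 levels after each gene had been centred on its mean over the 8 livers. The nearest was Cyp46a1, which encodes cholesterol 24-hydroxylase, with 0.306, against a median of 0.859 over all genes. It was followed by Gys2, the liver glycogen synthase (0.360), G0s2, an inhibitor of triglyceride lipase (0.362), and Gm19522 (0.373). Herpud1, a part of the disposal of misfolded proteins from the endoplasmic reticulum (0.386), the repressor Zbtb20 (0.406), 1700018L02Rik (0.407) and Por (0.409), the electron donor of the cytochromes P450, completed the 8. Cyp46a1 was at 1.87 ± 0.0818 FPKM in the LD livers and 0.758 ± 0.252 in the ADV livers (SD, n = 4 each), and Gys2 at 111 ± 27.9 and 48.6 ± 8.56. By choice these genes share the low ADV livers of Col27a1, so that their differences are no further evidence.

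Over all 16 libraries, with each gene centred within each organ, Cyp46a1, G0s2 and Por were again among the 8 nearest, at 0.273, 0.353 and 0.379. The others were Fitm2, which helps to form lipid droplets (0.370), the mitochondrial carrier Slc25a47 (0.404), the galactosyltransferase B4galt5 (0.432), the carboxylesterase Ces2c (0.434) and the glutathione transferase Gstt2 (0.438). All 8 were low in the kidney of A115. Por, for example, was at 16 FPKM there and at 88.8 or more in the other kidneys, and G0s2 at 5.15 and at 30.6 or more. Cyp46a1 and Slc25a47 had LD kidney means of only 0.291 and 0.443 FPKM and were listed at 0 in the kidney of A115, so their kidney match rests on low values. When that kidney was left out, 5 of the 8 stayed among the nearest and Gys2, Adgrf1 and Setd1b took the place of the others, a listing made after the values had been seen.

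**Figure D4:**
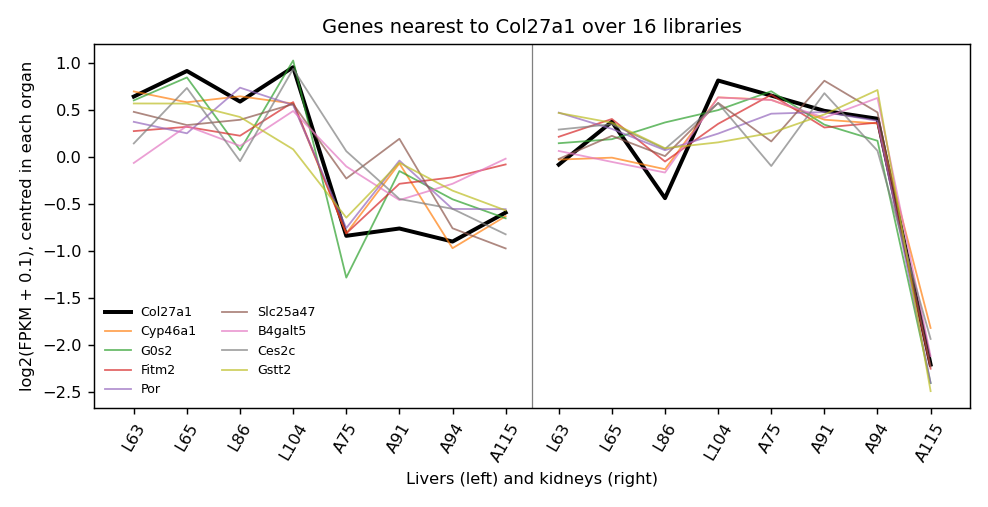
Log2(FPKM + 0.1) of Col27a1 (black) and the 8 genes nearest to it over 16 libraries, each centred on its mean within the organ, with livers on the left and kidneys on the right. The lines lie mostly above 0 in the LD livers, except B4galt5 in L63 and Ces2c in L86, and mostly below 0 in the ADV livers, and all drop in the kidney of A115, where Por was at 16 FPKM.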

How the data were processed

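Poly(A)-selected RNA of 16 libraries was sequenced as stranded read pairs. The authors trimmed adaptors, mapped reads to GRCm38/mm10 with STAR (2.5.4b per the labels), removed reads with a mapping quality under 10 and used HOMER to quantify exons of UCSC known canonical genes. The deposited values are FPKM, each library divided by its own total, with no normalization between libraries. Values times length and total gave multiples of 0.5 fragment in 100% of values above 0 (within 0.001). DESeq2, named in the paper's methods, needs counts and was not run. Genes with a mean above 0.5 FPM (FPKM without the division by length) were tested on log2(FPKM + 0.1) in each organ apart, with R 4.3.3 and limma 3.58.1 (trended eBayes, Benjamini-Hochberg over all genes tested). The procedure was tested on simulated data. Single genes also had an exact two-sided permutation test over 70 assignments, with 0.029 as the smallest p possible.

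Col27a1, the lists and the tests were chosen with earlier results of these data known. Named genes were the 11 fibrillar collagens, neighbours within 300 kb, up to 4 members of each list with the smallest p or all that passed, and the 8 genes nearest in pattern. Beside those, Dbp, Arntl, Per3, Cry2, Nr1d2, Acan, Comp, Clec4f, Ngfr, Ttll8, Adgrf1, Setd1b, Alb and Lum were named after their values had been seen. Symbols with several rows were read from the row with most fragments. G and C content came from the GENCODE M21 transcript nearest in length, found for 97.1% of the liver and 96.2% of the kidney genes tested. Liver and kidney of a mouse carry the same number and come from the same animal, so the joint fit of both organs was also made with the mouse as a block (consensus correlation 0.0958).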

Additional observations from a re-analysis of the deposited data

Results flagged for a closer look

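In 60 groups of 4 libraries, over Col27a1, the other fibrillar collagens and the neighbours, a mouse far from the other 3 on the log2 scale was sought by the gap to its nearest value relative to the range, by Dixon's test. Chance flags about 1 group in 20, and 7 groups were flagged. In the ADV kidneys, A115 was far below the others for Col27a1 (0.690 FPKM against 4.72 to 5.61), Kif12 (2.45 against 31.6 to 44.3), Whrn (0.551 against 4.94 to 5.44) and Atp6v1g1 (35.3 against 126 to 154). Also in the ADV kidneys, A91 was below the others for Col3a1, with 4.19 FPKM against 29.1 to 33.3. In the ADV livers, A94 was above the others for Akna, with 2.97 FPKM against 0.412 to 0.466. In the LD livers, L86 was above the others for Ambp, with 1774 FPKM against 1413 to 1453. The difference in the ADV effect between liver and kidney was tested by limma over both organs for 18 of the collagens and neighbours, and the smallest adjusted p was 0.915. The unadjusted p was under 0.05 for 2 of them, Orm3 and Orm2, which were below the kidney minimum and entered the fit only through the liver, so that the value of Orm3, listed at 0 in all kidneys, is that of its liver difference.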

How the results depend on the processing

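The liver difference of Col27a1 stayed below 0 under all alternatives. It lay between −1.67 and −1.31 over 11 choices of processing, moved by more than the SD between mice with a pseudocount of 1 (−1.31), which shrinks differences by construction, and lay between −1.61 and −1.48 when 1 mouse was left out. In the kidney the difference lay between −0.36 and −0.18 over 11 choices, and between −0.60 and 0.35 when 1 mouse was left out (adjusted p 0.373 to 1.0). It was 0.35 without A115 and 0.16 without A115 after scaling by the median ratio. The replicate block, with the mouse as block in 1 fit of both organs, left the kidney difference of Col27a1 at −0.33 (adjusted p = 1.0) and changed no call of the collagens or neighbours. With that block or without it, the joint fit called 1 hepatocyte marker in the kidney, Apoa1 (1.31, adjusted p = 0.00989 with the block), which is below the kidney minimum, with 2 to 3 fragments per LD kidney and 9 to 11 per ADV kidney, and entered the joint fit only through its liver level.

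Leaving out 1 mouse called 0 genes of each list in the liver. In the kidney the ranges were 0 to 2 for fibrillar collagens and collagen receptors, 0 to 3 for neighbours, stellate cell markers and tubule markers, 0 to 4 for collagen synthesis and core clock genes, and 0 to 1 for acinar markers, with the highest value without A115 in each case, where 2724 of 14475 kidney genes (18.8%) were called. The kidney lists held 7 fibrillar collagens, 10 receptors, 7 neighbours, 13 stellate cell, 10 tubule, 27 synthesis, 11 clock and 1 acinar gene above the minimum. After scaling by the median ratio without A115 the counts were, in the same order, 2, 3, 1, 2, 1, 4, 3 and 0, and 2309 of all genes. The members and directions changed as well. Plod1 and P3h3 were no longer called, while Plod2 (−0.49), Mia3 (−0.42) and the receptor Itgb1 (−0.39) were called lower in ADV. That scaling moved the median difference of all kidney genes from 0.20 to 0.0094, and quantile normalization moved that of the liver from 0.096 to −0.027. Single genes changed sign where their difference was near 0 or rested on 1 mouse, and the cause was not tested. In the liver, Col5a3 and Whrn had −0.12 and −0.19 with quantile normalization and −0.19 and −0.11 without A115 after scaling by the median ratio. When 1 mouse was left out, Col5a3 ranged from −0.093 to 0.37 and Whrn from −0.041 to 0.21, both lowest without A115, and Akna from −0.037, without A94, to 0.82. In the kidney, Zfp618 had 0.0014 and 0.0078 with pseudocounts of 0.5 and 1, and Kif12 had 0.015 with a pseudocount of 1 and 0.013 with quantile normalization. Without A115 after scaling by the median ratio, Kif12, Whrn and Atp6v1g1 had 0.71, 0.35 and 0.23. When 1 mouse was left out, kidney differences ranged from −0.26 to 0.15 for Zfp618, −0.47 to 0.90 for Kif12, −0.17 to 1.06 for Akna, −0.48 to 0.55 for Whrn, −0.28 to 0.43 for Atp6v1g1 and −0.058 to 0.36 for Tmem268, each highest without A115.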
